A study of Mus musculus with 6 samples.

Results

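The vascular endothelial cells of the mouse aortic root were taken from 3 single-cell libraries sorted as negative for the traced smooth muscle lineage. The members were chosen by measured UMIs, so the genes used for that are given as descriptions only. A barcode was a member if it passed the filters (at least 1000 UMIs, 500 genes and at most 10% mitochondrial UMIs), held at least 3 UMIs of Pecam1 and Cdh5 together, and stayed below 3 UMIs of the valve markers Dkk2, Wnt9b and Cldn11, 10 UMIs of the lymphatic markers Ccl21a, Mmrn1 and Lyve1, and 5 UMIs of the myeloid markers Tyrobp and Fcer1g. This rule took 677 of the 17878 lineage-negative barcodes that passed the filters, and of 41759 in all 6 libraries. They were 249 of 6263 barcodes in Klf4-floxed Marfan, 291 of 7105 in Marfan and 137 of 4510 in control.

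All animals were male and 24 weeks old. Klf4-floxed Marfan mice carried one Fbn1 C1041G allele, the Marfan allele, together with floxed Klf4, whose deletion was induced and, per the study title, specific to smooth muscle cells. The Cre driver is not given in the sources used here. Marfan mice carried the same Fbn1 genotype (C1041G/+) with a wild type Klf4 allele, and controls were littermates with wild type Klf4 and no Fbn1 mutation named. Each library pooled the aortic roots of 4 animals, dissociated in Liberase and elastase before tdTomato-negative cells were sorted. With 1 library per genotype there was no test between genotypes. All 95% intervals below are exact (Poisson for levels in CPM, UMIs per 1000000, conditional binomial for ratios, Clopper-Pearson for shares). They cover counting error only, not the spread between animals. The intervals of levels and ratios also leave out the spread between cells. The libraries shared 7 to 10 of their filtered barcodes pair by pair, and no member barcode was shared.

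Vascular endothelium lines the lumen and sits at the interface between flowing blood and the medial wall. Pecam1 and Cdh5 encode adhesion molecules of the junctions between endothelial cells, and Vwf encodes the clotting glycoprotein that these cells store and release. Laminar flow is known to induce the transcription factors Klf2 and Klf4, which in turn support Nos3, the nitric oxide synthase of endothelium. Activated endothelium displays the leukocyte adhesion molecules Vcam1, Icam1 and Selp and can secrete the vasoconstrictor endothelin, encoded by Edn1.

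The label did not hold for all of the members. Clustering the 677 barcodes gave 9 subclusters, and in 3 of them the summed fibroblast markers exceeded the summed endothelial markers by 9.74 to 26-fold. In the other 6 that ratio ran from 0.048 to 0.911. The 3 fibroblast-marker-high subclusters held 190 barcodes (28.1% of the members), which were 51 of 249 in Klf4-floxed Marfan, 78 of 291 in Marfan and 61 of 137 in control. Decorin (Dcn), a fibroblast proteoglycan, stood there at 16467 CPM in Klf4-floxed Marfan, 12971 CPM in Marfan and 15005 CPM in control, close to the level of the ungated lineage-negative cells, which had 16389 CPM in Klf4-floxed Marfan, 13774 CPM in Marfan and 17558 CPM in control. Vwf averaged 31.2 CPM in Klf4-floxed Marfan, 30.2 CPM in Marfan and 5.25 CPM in control in the fibroblast-marker-high barcodes. The membership rule did not use Vwf. The marker sums that set these subclusters apart held both Vwf and Dcn, so their levels on either side are descriptions only. In the 6 endothelial-led subclusters Vwf reached 308 CPM in Klf4-floxed Marfan, 379 CPM in Marfan and 177 CPM in control. Results are therefore given for the 487 endothelial-led barcodes, a split made after the values were seen, or for all members, and the text names which. The endothelial-led barcodes were 198 in Klf4-floxed Marfan, 213 in Marfan and 76 in control, with 1426075 UMIs in Klf4-floxed Marfan, 1715463 in Marfan and 547625 in control. They include the 117 barcodes of a lymphatic-like subcluster described below, 48 in Klf4-floxed Marfan, 57 in Marfan and 12 in control.

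Values at the edge of the rule bear on the same point. Exactly 3 UMIs of Pecam1 and Cdh5 were found in 34 Klf4-floxed Marfan members, 45 Marfan members and 32 control members. Exactly 2 UMIs, just outside, were found in 57 otherwise eligible barcodes in Klf4-floxed Marfan, 68 in Marfan and 70 in control. The median member held 10 such UMIs in Klf4-floxed Marfan, 9 in Marfan and 6 in control. As a measure of free RNA, barcodes with at least 5 myeloid UMIs had Pecam1 at 3.07 CPM in Klf4-floxed Marfan, 4.61 CPM in Marfan and 2.82 CPM in control. They held Dcn at 1256 CPM in Klf4-floxed Marfan, 907 CPM in Marfan and 1017 CPM in control, so a fibroblast transcript near that level in an endothelial subcluster is not read as expression. Median depth of the endothelial-led barcodes was 6468 UMIs in Klf4-floxed Marfan, 6685 in Marfan and 6060 in control.

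Other cell types left small traces in the endothelial-led barcodes. The fibroblast list summed to 3282 CPM in Klf4-floxed Marfan, 2009 CPM in Marfan and 4344 CPM in control. The smooth muscle list summed to 263 CPM in Klf4-floxed Marfan, 952 CPM in Marfan and 183 CPM in control, and the Marfan excess lay largely in 3 barcodes described below. The macrophage list summed to 139 CPM in Klf4-floxed Marfan, 187 CPM in Marfan and 108 CPM in control. The endothelial list, which holds Pecam1, Cdh5 and Vwf and helped to set the split, summed to 9666 CPM in Klf4-floxed Marfan, 9678 CPM in Marfan and 9614 CPM in control and is given as a description only. The part of these other cell types in the gene results was not tested.

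The 6 endothelial-led subclusters carried markers of different vessel types. Their leading genes come from the same cells that were clustered and are descriptions without a test. The most numerous, 133 barcodes, was led by Adh7, Adh1, Gkn3, Sfrp1, Isl1 and Klk8 and was aortic luminal endothelial-like, a name that rests on Gkn3 alone among its 10 leading genes and on 11 of 12 markers detected. The summed aortic luminal list did not single it out, at 24296 CPM here, 36257 CPM in the arterial-like subcluster and 105601 CPM in the fibroblast-marker-high one led by Tnfrsf11b, and its arterial sum, 12141 CPM, was above that of the arterial-like subcluster, 10110.2 CPM. The name is therefore a label for the subcluster led by Adh7 and Gkn3. Sfrp1, a secreted inhibitor of Wnt signalling, stood there at 1422 CPM, and Bmp4, a bone morphogenetic protein, at 1006 CPM, with Vwf at 533 CPM and Pecam1 at 2502 CPM. An arterial-like subcluster of 54 barcodes was led by Sema3g, Eps8l2, Nebl and Alpl. It held the highest Klf2 of the 9 subclusters, 2139.7 CPM, and the highest level of the arterial gap junction gene Gja5, 229.8 CPM. A venous-like subcluster of 53 barcodes was led by Fam167b, Ackr1, Rasa4 and Cysltr1, and had the highest Vwf, 733 CPM, and Selp, 291 CPM. Its name rests on Ackr1 alone among the 10 leading genes. Its capillary list summed to 11109 CPM and its venous list to 5721 CPM, less than in the luminal-like subcluster (9690.5 CPM).

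A capillary-like subcluster of 38 barcodes was led by Car4, Tcf15, Rgcc and Cd36. Gpihbp1, which anchors lipoprotein lipase on capillaries, stood at 1776 CPM and the fatty acid transporter Cd36 at 3805 CPM, while Vwf was only 37.3 CPM. An endocardial-like subcluster of 92 barcodes was led by Nckap5, Clec4g, Lsamp and Hapln1, and also held Dcn at 5177 CPM. Its name rests on Hapln1 alone among the 10 leading genes. Its endocardial list summed to 2631 CPM, less than the 3667 CPM of the fibroblast-marker-high subcluster led by Tnfrsf11b. Its fibroblast list summed to 6812 CPM. The name is therefore a label only. A lymphatic-like subcluster of 117 barcodes was led by Nts, Mmrn1, Lcn2 and Clca3a1, with the lymphatic regulator Prox1 at 295 CPM. These barcodes lay under the rule's limit of 10 UMIs of lymphatic markers, so the rule separated lymphatic cells only in part.

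**Figure D1:**
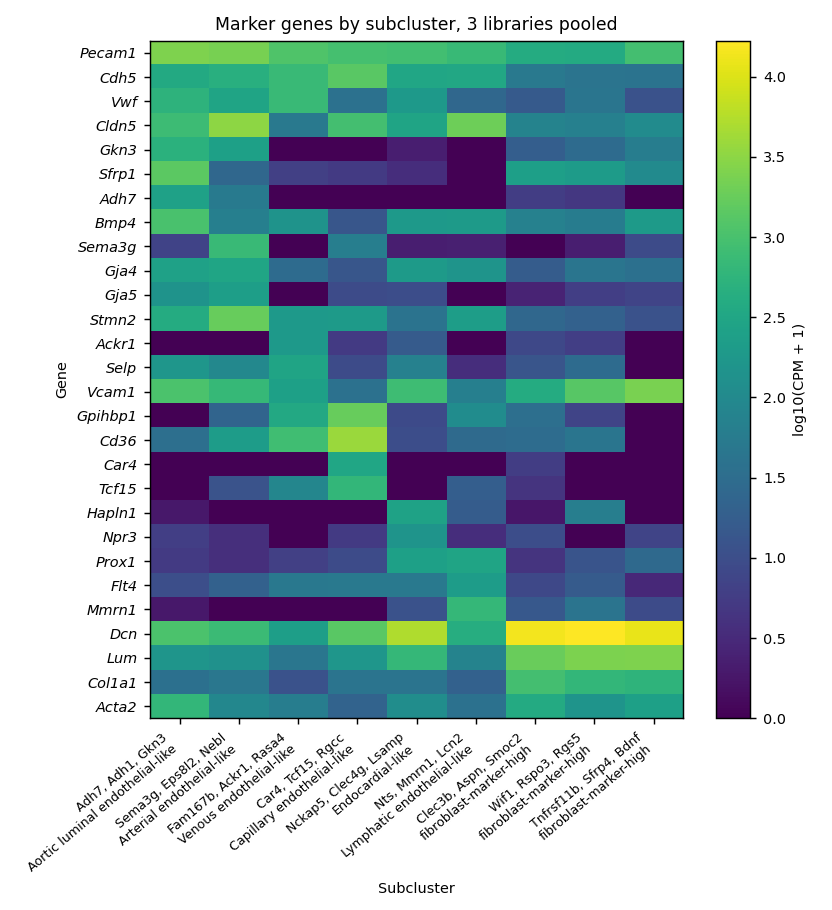
Levels of 28 marker genes (rows) in the 9 subclusters of the members (columns), as log10(CPM + 1) of counts pooled over the 3 libraries. Pecam1 and Cldn5 are found across the 6 endothelial-led columns, and Dcn and Lum are highest in the 3 fibroblast-marker-high columns on the right.

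The make-up of the members differed between libraries. The luminal-like subcluster was 25.3% of the members in Klf4-floxed Marfan (interval 20.02 to 31.2%), 21.6% in Marfan (17.1 to 26.8%) and 5.11% in control (2.08 to 10.2%). Both Marfan libraries lay above control and the intervals did not overlap. At a finer clustering resolution of 1 the matching cluster was 20.5% of members in Klf4-floxed Marfan (15.6 to 26%), 11.3% in Marfan (7.94 to 15.6%) and 3.65% in control (1.2 to 8.31%), and the Marfan and control intervals overlapped. In barcodes these shares were 63 Klf4-floxed Marfan, 63 Marfan and 7 control barcodes. The lymphatic-like subcluster held 48 Klf4-floxed Marfan, 57 Marfan and 12 control barcodes. The endocardial-like subcluster held 39 Klf4-floxed Marfan, 26 Marfan and 27 control barcodes, the lowest share being that of Marfan. The arterial-like subcluster held 19 Klf4-floxed Marfan, 26 Marfan and 9 control barcodes, the venous-like one 16 Klf4-floxed Marfan, 28 Marfan and 9 control barcodes, and the capillary-like one 13 Klf4-floxed Marfan, 13 Marfan and 12 control barcodes. The share intervals of these 3 types overlapped among the libraries. All these shares are of all members, fibroblast-marker-high barcodes included. The endothelial-led barcodes alone numbered 198 in Klf4-floxed Marfan, 213 in Marfan and 76 in control, and shares among them are not given. Such shares can be set by digestion and sorting, whose part was not tested, and the control library also held the largest share of fibroblast-marker-high barcodes, 44.5%, against 20.5% in Klf4-floxed Marfan and 26.8% in Marfan.

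**Figure D2:**
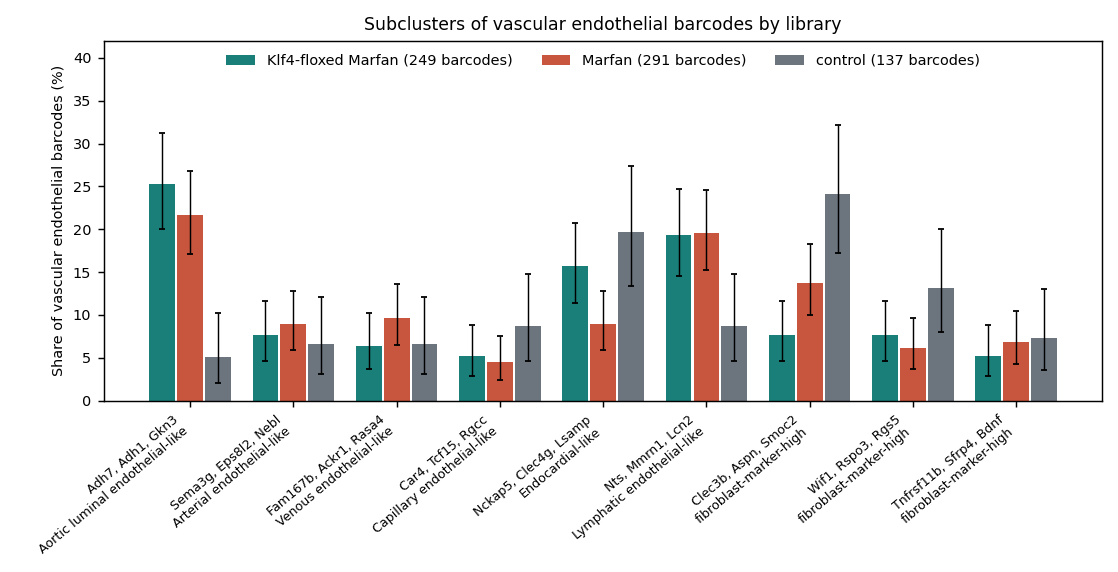
Share of the members (y axis, %) in each of the 9 subclusters (x axis) in the Klf4-floxed Marfan, Marfan and control libraries, with exact Clopper-Pearson 95% intervals. The luminal-like share is 25.3% and 21.6% in the Klf4-floxed Marfan and Marfan libraries and 5.11% in control.

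As a share of all filtered lineage-negative barcodes, members made up 3.98% in Klf4-floxed Marfan (3.51 to 4.49%), 4.1% in Marfan (3.65 to 4.58%) and 3.04% in control (2.56 to 3.58%). Endothelial-led barcodes alone made up 3.16% in Klf4-floxed Marfan (2.74 to 3.63%), 3.0% in Marfan (2.61 to 3.42%) and 1.69% in control (1.33 to 2.1%). The control share was below that of both Marfan libraries, with no overlap of intervals in the endothelial-led count.

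Klf4 transcript was present in the endothelial-led cells of all 3 libraries, at 504 CPM (468 to 542) in Klf4-floxed Marfan, 416 CPM (386 to 448) in Marfan and 358 CPM (309.6 to 412) in control. It was highest in the floxed library, whose deletion was directed at another lineage, and the short 3' tags of this chemistry do not show whether an allele is intact. Among the endothelial-led subclusters, pooled over libraries, Klf4 ran from 357 CPM in the endocardial-like to 709 CPM in the arterial-like subcluster, a wider span than that between libraries. After each cell was thinned to 2000 UMIs, the share of endothelial-led cells with a Klf4 UMI was 55% in Klf4-floxed Marfan, 48.1% in Marfan and 44.4% in control (before thinning 77.8% in Klf4-floxed Marfan, 75.1% in Marfan and 65.8% in control). Thinning left out 9 shallower endothelial-led cells in Klf4-floxed Marfan, 5 in Marfan and 4 in control. The same share in macrophage-gated cells, which also express Klf4, was 43.2% in Klf4-floxed Marfan, 33.1% in Marfan and 40.6% in control. Klf2 stood at 1524 CPM (1460.4 to 1589) in Klf4-floxed Marfan, 1319.8 CPM (1266 to 1375) in Marfan and 1538 CPM (1435 to 1645) in control. Fbn1, which encodes the microfibril protein altered in Marfan mice, was low in endothelial-led cells, at 52.6 CPM (41.4 to 65.9) in Klf4-floxed Marfan, 53 CPM (42.7 to 65.1) in Marfan and 93.1 CPM (69.3 to 122) in control, and 367 CPM in Klf4-floxed Marfan, 442 CPM in Marfan and 389 CPM in control in the fibroblast-marker-high barcodes.

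**Figure D3:**
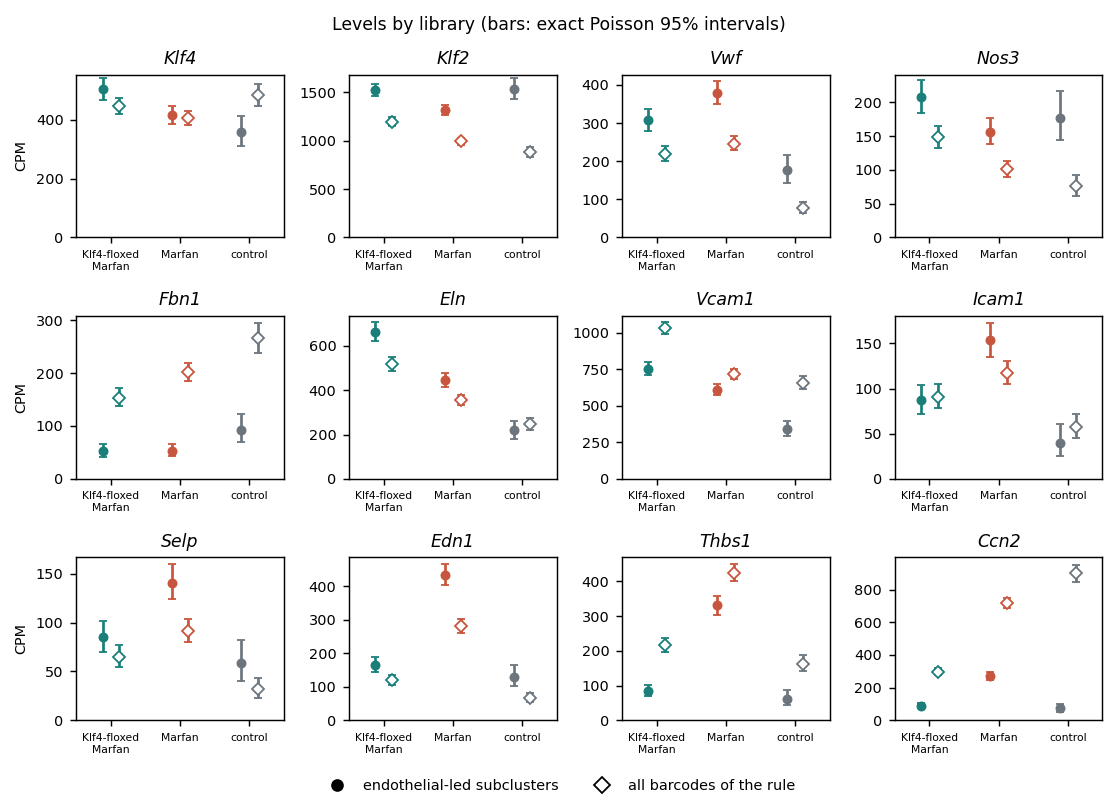
CPM (y axes) of 12 genes in the Klf4-floxed Marfan, Marfan and control libraries, with exact Poisson 95% intervals; filled circles are the endothelial-led subclusters and open diamonds all barcodes of the rule. Edn1 is 165 CPM in Klf4-floxed Marfan, 433 CPM in Marfan and 130 CPM in control endothelial-led cells, while Klf4 and Klf2 lie close together in all 3.

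Marfan endothelial-led cells held more transcript of endothelin and of leukocyte adhesion molecules than control cells. They held less of several interferon-response and capillary genes, and of several genes highest in the endocardial-like subcluster. Edn1 measured 433 CPM in Marfan and 129.7 CPM in control, and Vcam1 measured 609 CPM in Marfan and 339.6 CPM in control. The VEGF receptor gene Kdr ran the other way, measuring 163 CPM in Marfan and 373 CPM in control. Because the libraries differed in their subcluster shares, ratios are also given at equal subcluster shares. The 2 libraries were compared over 5071 genes that averaged at least 30 CPM and had a UMI in at least 10% of members. A gene was counted where its CPM differed by at least 1.5-fold. Over all members, 245 genes were higher (4.83%) and 349 lower (6.88%) in Marfan. In the endothelial-led cells 353 of 5111 genes were higher (6.91%) and 671 lower (13.1%). With every library weighted to the same subcluster shares, 352 of 5118 were higher (6.88%) and 767 lower (15%). This weighting rests on 7 to 27 control cells per subcluster. It separates a difference in level from a difference in make-up as far as these subclusters capture the make-up.

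Several of the genes highest in Marfan over all members were those that lead the luminal-like subcluster. Adh7, an alcohol dehydrogenase of retinoid and ethanol metabolism, had a log2 ratio of 2.27 (1.5 to 3.14) over all members and -0.29 at equal subcluster shares. Its relative Adh1 gave 2.32 and 0.24, and the kallikrein Klk8 gave 2.29 and 0.56. Sfrp1 gave 2.3 over all members and 1.11 at equal shares, and in the luminal-like subcluster it stood at 1365 CPM in Klf4-floxed Marfan, 1501 CPM in Marfan and 682 CPM in control. At equal shares these genes lean on the 7 control barcodes of that subcluster, which held 21 Sfrp1 UMIs. Their equal-share ratios are therefore for orientation only. The serine protease inhibitor Serpinb6b was higher in both views (2.68 and 1.62), as was Cda, cytidine deaminase (2.32 and 1.61). Serpinb6b stood at 207 CPM in Klf4-floxed Marfan, 233 CPM in Marfan and 25.6 CPM in control in endothelial-led cells, so both Marfan libraries lay far above control.

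Spp1 (osteopontin) and Sfrp2 were also among the 10 highest. Spp1 lay mainly in fibroblast-marker-high barcodes in Marfan and control, and mainly in endothelial-led barcodes in Klf4-floxed Marfan. Over all members Spp1 was 112 CPM in Klf4-floxed Marfan, 337 CPM in Marfan and 50.4 CPM in control, in fibroblast-marker-high barcodes 37.1 CPM in Klf4-floxed Marfan, 747 CPM in Marfan and 80.00 CPM in control, and in endothelial-led cells 147 CPM in Klf4-floxed Marfan, 83.9 CPM in Marfan and 9.13 CPM in control. The macrophage-gated barcodes of the same libraries held Spp1 at 121 CPM in Klf4-floxed Marfan, 590.2 CPM in Marfan and 34.6 CPM in control, and this level moves with that of all members. After thinning, the share of endothelial-led cells with an Spp1 UMI was 3.7% in Klf4-floxed Marfan, 12.5% in Marfan and 4.17% in control (before thinning 6.06% in Klf4-floxed Marfan, 31.9% in Marfan and 6.58% in control). For macrophage-gated cells it was 9.05% in Klf4-floxed Marfan, 24.5% in Marfan and 4.61% in control. The endothelial-led shares lay below these and stood in another order than the levels, so no expression or order is read from Spp1. Sfrp2, another secreted Wnt antagonist, was 178 CPM in Klf4-floxed Marfan, 1917 CPM in Marfan and 103 CPM in control in the fibroblast-marker-high subcluster led by Tnfrsf11b, and 36.4 CPM in Klf4-floxed Marfan and 405 CPM in Marfan in the luminal-like one, where the 7 control barcodes had no UMI.

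Of 18 adhesion and activation genes 14 were measured, and 7 were at least 1.5-fold higher and 0 lower in Marfan endothelial-led cells, where 6.91% of all genes were higher and 13.1% lower, with a median log2 ratio of 0.67 beside -0.06 over all genes. At equal subcluster shares 9 were higher and 0 lower (median 0.91). Over all members 5 were higher and 0 lower, with a median of 0.11. Vcam1, the counter-receptor of leukocyte integrin, stood at 752 CPM (707 to 798) in Klf4-floxed Marfan, 609 CPM (572 to 647) in Marfan and 339.6 CPM (293 to 392) in control. Icam1, a second integrin ligand, stood at 87 CPM (72.3 to 104) in Klf4-floxed Marfan, 153 CPM (135 to 173) in Marfan and 40.2 CPM (25.2 to 60.8) in control. Marfan was the highest of the libraries for Icam1, and control was the lowest for both genes. After thinning, 12.2% of endothelial-led cells had an Icam1 UMI in Klf4-floxed Marfan, 22.6% in Marfan and 9.72% in control. Among macrophage-gated cells it was 14.2% in Klf4-floxed Marfan, 14.7% in Marfan and 19.6% in control, above the endothelial-led share except in Marfan. The part of free RNA in the Icam1 levels was not tested.

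P-selectin (Selp), which captures rolling leukocytes, was 84.8 CPM (70.4 to 101) in Klf4-floxed Marfan, 141 CPM (124 to 160.0) in Marfan and 58.4 CPM (39.97 to 82.5) in control. Its level was highest in the venous-like subcluster, with 215 CPM in Klf4-floxed Marfan, 364 CPM in Marfan and 166 CPM in control. Lcn2, an iron-trapping acute-phase protein, was highest in the lymphatic-like subcluster, with 579 CPM in Klf4-floxed Marfan, 1089 CPM in Marfan and 475 CPM in control, and Lrg1, an acute-phase glycoprotein acting on TGF-beta signalling, was 405 CPM in Klf4-floxed Marfan, 719 CPM in Marfan and 462 CPM in control. Socs3, the feedback inhibitor of cytokine signalling, was 389 CPM in Klf4-floxed Marfan, 309 CPM in Marfan and 151 CPM in control in the venous-like subcluster. The neutrophil chemokine Cxcl1 had a log2 ratio of 3.18 (1.58 to 5.48) in endothelial-led cells but -0.26 (-0.68 to 0.16) over all members, where fibroblast-marker-high barcodes of the control library carried it (15.3 CPM in Klf4-floxed Marfan, 51.8 CPM in Marfan and 151 CPM in control in the subcluster led by Clec3b). After thinning to 2000 UMIs, the share of endothelial-led cells with a Vcam1 UMI was 39.7% in Klf4-floxed Marfan, 42.8% in Marfan and 29.2% in control (before thinning 58.1% in Klf4-floxed Marfan, 59.2% in Marfan and 40.8% in control), against 14.8% in Klf4-floxed Marfan, 10.2% in Marfan and 9.45% in control among macrophage-gated cells. The thinned order of Klf4-floxed Marfan and Marfan went against their levels, so none is read between them.

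Endothelin (Edn1) was higher in Marfan than in control, at 165 CPM (145 to 188) in Klf4-floxed Marfan, 433 CPM (403 to 465) in Marfan and 129.7 CPM (101 to 164) in control. The log2 ratio of Marfan to control was 2.06 (1.74 to 2.4) over all members, 1.74 (1.39 to 2.11) in endothelial-led cells and 0.89 at equal subcluster shares. Vwf gave 1.1 (0.79 to 1.42) in endothelial-led cells and 0.49 at equal shares. Nos3 gave -0.18 (-0.52 to 0.17), with levels of 208 CPM in Klf4-floxed Marfan, 157 CPM in Marfan and 177 CPM in control. The TGF-beta receptor Tgfbr2 stood at 234 CPM in Klf4-floxed Marfan, 203 CPM in Marfan and 234 CPM in control, and the co-receptor Eng at 522 CPM in Klf4-floxed Marfan, 559 CPM in Marfan and 778 CPM in control. Of the 21 measured of 27 genes of TGF-beta and BMP signalling, 5 were higher and 3 lower in Marfan endothelial-led cells, with a median of 0.02.

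Arterial genes were higher in Marfan over all members, but their median was below 0 once subcluster shares were made equal. Over all members 7 of 11 measured arterial genes were at least 1.5-fold higher (median 0.76), in endothelial-led cells 5 were higher and 1 lower (0.39), and at equal shares 2 were higher and 2 lower (-0.20). The background of genes higher was 4.83% over all members, 6.91% in endothelial-led cells and 6.88% at equal shares, with all-gene medians of -0.01, -0.06 and -0.07. Gja5 changed sign between the last 2 views (0.81 and -0.74), as did Bmx, a kinase of arterial endothelium (1.02 and -0.20). Gja4, the other arterial connexin, was higher in both (0.59 and 0.79). Capillary genes ran the other way, with 6 of 12 lower and 1 higher in Marfan endothelial-led cells (median -0.68), beside 13.1% of all genes lower, and a median of -0.04 at equal shares. Over all members the capillary list had 1 of 13 higher and 3 lower, with a median of 0.22. Within the capillary-like subcluster Gpihbp1 was 1832 CPM in Klf4-floxed Marfan, 1898 CPM in Marfan and 1566 CPM in control, while the transcription factor Tcf15 was 769 CPM in Klf4-floxed Marfan, 346 CPM in Marfan and 843 CPM in control. Kdr and Flt1, receptors for VEGF, were lower in Marfan, with log2 ratios of -1.2 and -0.69 in endothelial-led cells and -0.82 and -0.16 at equal shares.

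Elastin (Eln), the core of elastic fibres, stood at 665 CPM (623 to 708) in Klf4-floxed Marfan, 447 CPM (415 to 479) in Marfan and 219 CPM (182 to 262) in control in endothelial-led cells. These intervals did not overlap, but they leave out the spread between cells and between animals, so no order of genotypes is read from them. The highest level was in the luminal-like subcluster, where Eln was 1563 CPM in Klf4-floxed Marfan, 888 CPM in Marfan and 779 CPM in control. At equal subcluster shares the Marfan to control log2 ratio of Eln was 0.09, under 1.5-fold, against 1.03 without the weighting. The elastic fibre list had 5 of 12 measured genes higher and 3 lower in Marfan endothelial-led cells (median 0.55), where 6.91% of all genes were higher and 13.1% lower, and 1 higher and 2 lower at equal shares (-0.09). Fbln5, an elastic fibre assembly protein, gave 1.96 and 1.13. Over all members this list had 2 of 16 higher and 5 lower, with a median of -0.22. Basement membrane genes had 6 of 13 lower and 0 higher (median -0.53) in endothelial-led cells, where 13.1% of all genes were lower. At equal shares 4 were lower (-0.16), where 15% of all genes were lower, and all members had 1 of 13 higher and 2 lower, with a median of -0.34. Among them the collagen IV chain Col4a1 gave -0.59 and the laminin chain Lamc1 -0.68 in endothelial-led cells.

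Over all members 12 of 19 measured interferon-response genes were lower in Marfan, where 6.88% of all genes were lower, with 0 higher and a median of -0.74. Ifit2 and Cmpk2, both interferon-induced, were among the 10 lowest genes, with log2 ratios of -2.41 and -2.36. Much of this level lay outside the endothelial-led cells. In the fibroblast-marker-high subcluster led by Wif1 and Rspo3, Isg15 was 394 CPM in Klf4-floxed Marfan, 458 CPM in Marfan and 1433 CPM in control. Endothelial-led cells still had 9 of 16 lower and 1 higher (-0.79), beside 13.1% of all genes lower. At equal shares 3 of 15 were lower and 0 higher (-0.20), near the 15% of all genes lower there. Subclusters disagreed, since Isg15 was 423 CPM in Klf4-floxed Marfan, 74.3 CPM in Marfan and 619.8 CPM in control in the endocardial-like subcluster and 287 CPM in Klf4-floxed Marfan, 202 CPM in Marfan and 50.9 CPM in control in the lymphatic-like one.

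Of the 10 genes lowest in Marfan, Lsamp, Epha7, Cdh11 and Enpp2 were highest in the endocardial-like subcluster, and the difference was also present within it. Nckap5 was 217 CPM in Klf4-floxed Marfan, 56.8 CPM in Marfan and 364 CPM in control there, Lsamp, a cell adhesion protein, 437 CPM in Klf4-floxed Marfan, 214 CPM in Marfan and 593 CPM in control, and the cadherin Cdh11 515 CPM in Klf4-floxed Marfan, 153 CPM in Marfan and 612 CPM in control. The ephrin receptor Epha7 was 153 CPM in Klf4-floxed Marfan, 56.8 CPM in Marfan and 217 CPM in control. Enpp2, the enzyme that makes lysophosphatidic acid, was 227 CPM in Klf4-floxed Marfan, 380.1 CPM in Marfan and 724 CPM in control. In the opposite direction, Npr3, the clearance receptor of natriuretic peptides and a marker of endocardium, was 24.9 CPM in Klf4-floxed Marfan, 454 CPM in Marfan and 23.2 CPM in control. For Nckap5, Lsamp, Cdh11, Epha7 and Npr3 the Marfan library stood apart from both others, while for Enpp2 the control library was the highest and Klf4-floxed Marfan the lowest. At equal subcluster shares Lsamp, Cdh11 and Epha7 had Marfan to control log2 ratios of -1.45, -1.61 and -1.81. Among the rest of the 10, Id4, Tnfrsf11b and Sost were highest in fibroblast-marker-high subclusters. Tnfrsf11b (osteoprotegerin) was only 3.51 CPM in Klf4-floxed Marfan, 2.91 CPM in Marfan and 3.65 CPM in control in endothelial-led cells. Sost, a secreted Wnt inhibitor, had a log2 ratio of -1.89 (-2.29 to -1.5) over all members but 1.27 (0.26 to 2.46) in endothelial-led cells.

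**Figure D4:**
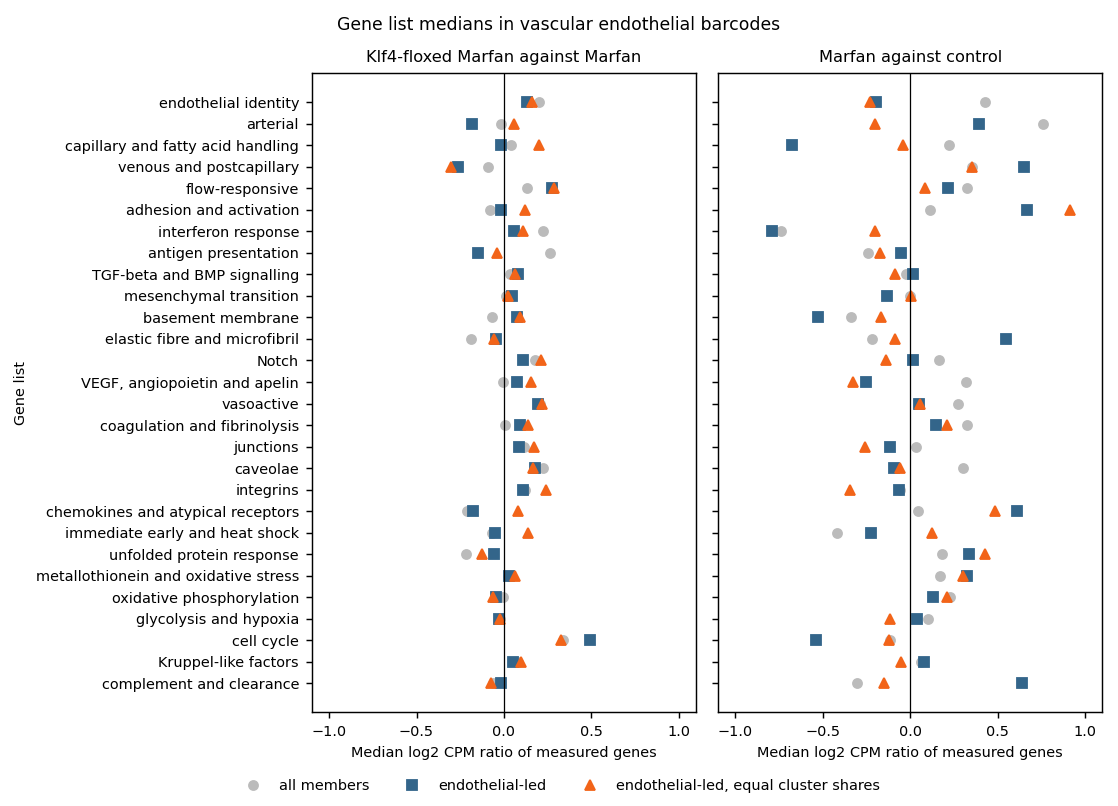
Median log2 CPM ratio (x axes) of the measured genes of 28 lists (y axis) for Klf4-floxed Marfan against Marfan and Marfan against control, over all members, in endothelial-led cells, and in these at equal subcluster shares. For Marfan against control, adhesion and activation moves to 0.91 at equal shares and interferon response to -0.20, while most lists lie near 0 for Klf4-floxed Marfan against Marfan.

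Fewer genes were at least 1.5-fold apart between Klf4-floxed Marfan and Marfan, the comparison that asks what accompanies smooth muscle Klf4 deletion in Marfan mice. Endothelial-led cells held 1426075 UMIs in Klf4-floxed Marfan, 1715463 in Marfan and only 547625 in control, and ratios of low counts scatter more. The part of counting error in the 2 sets of counts was not tested, so their sizes are not read against each other. Klf4-floxed Marfan endothelial-led cells had less Edn1, at 165 CPM in Klf4-floxed Marfan and 433 CPM in Marfan. Ccn2 was also lower, at 89.8 CPM in Klf4-floxed Marfan and 272 CPM in Marfan. Gsta4 was higher, at 98.2 CPM in Klf4-floxed Marfan and 21 CPM in Marfan. Hbegf was higher too, at 165 CPM in Klf4-floxed Marfan and 42 CPM in Marfan. Thbs1 was 84.8 CPM in Klf4-floxed Marfan and 331 CPM in Marfan. This is not read as a difference, because the thinned Thbs1 share was also highest in Marfan among macrophage-gated cells. Over all members 93 genes were at least 1.5-fold higher (1.83%) and 97 lower (1.91%) in Klf4-floxed Marfan. In endothelial-led cells 188 were higher (3.68%) and 99 lower (1.94%), and at equal shares 194 were higher (3.79%) and 113 lower (2.21%). The Marfan library serves both comparisons, so a gene that stands apart there tends to appear in both with opposite signs. The 8 measured Kruppel-like factors had none past 1.5-fold in this comparison or against control in endothelial-led cells.

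Among the genes highest in Klf4-floxed Marfan, most were concentrated in 1 or a few endothelial subclusters. Gsta4, a glutathione S-transferase that clears lipid peroxidation products, was 98.2 CPM (82.6 to 116) in Klf4-floxed Marfan, 21 CPM (14.7 to 29.1) in Marfan and 73 CPM (52.2 to 99.5) in control, and in the luminal-like subcluster 239 CPM in Klf4-floxed Marfan and 27.9 CPM in Marfan, with no UMI in the 7 control barcodes (interval up to 119.8 CPM). There, 3 Klf4-floxed Marfan cells held 65.3% of its UMIs, and 20 of 63 Klf4-floxed Marfan cells and 14 of 63 Marfan cells had at least 1. Hbegf, a ligand of the EGF receptor, was 165 CPM (144 to 187) in Klf4-floxed Marfan, 42 CPM (32.8 to 52.9) in Marfan and 85.8 CPM (63.1 to 114) in control, with 743 CPM in Klf4-floxed Marfan, 96.1 CPM in Marfan and 116 CPM in control in the endocardial-like subcluster. Ptn, the growth factor pleiotrophin, was 410.2 CPM in Klf4-floxed Marfan, 174 CPM in Marfan and 362 CPM in control, mostly in the lymphatic-like subcluster, and Tcim was 1161 CPM in Klf4-floxed Marfan, 399 CPM in Marfan and 455 CPM in control in the capillary-like one. For Gsta4 and Ptn, the control level lay nearer to the Klf4-floxed Marfan than to the Marfan level in endothelial-led cells. Inhba, a subunit of activin, gave a log2 ratio of 1.29 (0.64 to 1.97), and Ccdc141 1.14 (0.64 to 1.65).

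Several of the genes lowest in Klf4-floxed Marfan over all members came from fibroblast-marker-high barcodes. The matrix metalloproteinase Mmp3 gave -1.73 (-1.98 to -1.49) over all members and -0.06 (-0.98 to 0.85) in endothelial-led cells, Fibin -2.17 and -0.32, and Igfbp6 -1.26 and 0.73. Vgll3 and Tent5a were under 7 CPM in the endothelial-led cells of both libraries. Others were lower in endothelial-led cells too. The metallothionein Mt2 gave -1.49 and -1.58, and Ccn2 gave -1.26 (-1.4 to -1.13) and -1.6 (-1.89 to -1.31). Edn1 gave -1.23 (-1.44 to -1.02) and -1.39 (-1.61 to -1.17), and Thbs1 -0.97 (-1.13 to -0.81) and -1.96 (-2.26 to -1.68). The endothelial-led Thbs1 value is not read as a difference, as set out below. Sfrp2 was also lower in endothelial-led cells, at 14.7 CPM in Klf4-floxed Marfan and 155 CPM in Marfan. The myosin light chain Myl9 was 7.01 CPM in Klf4-floxed Marfan and 58.9 CPM in Marfan there. Sfrp2 stood at 947 CPM in the fibroblast-marker-high subcluster led by Tnfrsf11b, pooled over libraries. The Marfan endothelial-led cells include 3 barcodes rich in contractile transcripts, described below. The part of other cell types in these Sfrp2 and Myl9 levels was not tested. The adhesion and activation list had 3 of 14 measured genes lower (Icam1, Selp and Lcn2) and 1 higher, with a median of -0.02.

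The luminal-like subcluster allowed a closer look, since both Marfan libraries had 63 barcodes in it, with 494408 UMIs in Klf4-floxed Marfan and 644913 in Marfan. Control had 7 barcodes and its values are given for orientation only. This subcluster was chosen after its values were seen. Of 1680 genes at a mean of at least 100 CPM, 86 were higher (5.12%) and 53 lower (3.15%) in Klf4-floxed Marfan. Leaving aside markers of other cell types, the 3 lowest ratios were those of Thbs1, Ccn2 and Ccn1. Thbs1 (thrombospondin, chr2:118111876-118127133 on mm10) encodes a matrix protein that can activate latent TGF-beta, Ccn2 (chr10:24595442-24598683) and Ccn1 (chr3:145646976-145649981) encode matricellular proteins that are known targets of YAP and TEAD, and Edn1 lies at chr13:42301476-42307990.

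Thbs1 was 168 CPM in Klf4-floxed Marfan, 761 CPM in Marfan and 357 CPM in control, so that Klf4-floxed Marfan stood to Marfan at a log2 ratio of -2.18 (-2.53 to -1.84). A Thbs1 UMI was found in 23 of 63 Klf4-floxed Marfan cells and 35 of 63 Marfan cells. Thbs1 also stood out in Marfan among macrophage-gated cells, where the thinned share with a UMI was 5.39% in Klf4-floxed Marfan, 20.4% in Marfan and 4.84% in control, against 8.47% in Klf4-floxed Marfan, 18.3% in Marfan and 9.72% in control of all endothelial-led cells. At these shares the endothelial-led Marfan value is not read as a difference, and the part of free RNA in the luminal-like level was not tested. Ccn1 was 176 CPM in Klf4-floxed Marfan, 647 CPM in Marfan and 422 CPM in control (log2 ratio -1.88, interval -2.23 to -1.54), with a UMI in 28 of 63 Klf4-floxed Marfan cells and 40 of 63 Marfan cells. The levels thus differed by more than the numbers of cells with a UMI. Ccn2 was 115 CPM in Klf4-floxed Marfan, 449.7 CPM in Marfan and 259.8 CPM in control (log2 ratio -1.96, interval -2.4 to -1.55). Edn1 was 285 CPM in Klf4-floxed Marfan, 759.8 CPM in Marfan and 259.8 CPM in control (log2 ratio -1.41, interval -1.69 to -1.14), with a UMI in 24 of 63 Klf4-floxed Marfan cells and 38 of 63 Marfan cells. For Edn1 the thinned share in endothelial-led cells was 14.8% in Klf4-floxed Marfan, 27.4% in Marfan and 16.7% in control, while macrophage-gated cells had 0.97% in Klf4-floxed Marfan, 0.929% in Marfan and no UMI in 434 control cells (exact interval up to 0.846%). Igfbp7, a secreted binding protein of vascular basement membrane, was 603 CPM in Klf4-floxed Marfan, 1374 CPM in Marfan and 682 CPM in control (log2 ratio -1.19, interval -1.38 to -1.0). The other 5 endothelial-led subclusters, pooled, did not show the same order for every gene. Thbs1 was 40.8 CPM in Klf4-floxed Marfan, 71 CPM in Marfan and 44.5 CPM in control there, Edn1 102 CPM in Klf4-floxed Marfan, 236 CPM in Marfan and 122 CPM in control and Ccn2 76.2 CPM in Klf4-floxed Marfan, 164 CPM in Marfan and 61.9 CPM in control, with Marfan highest. Ccn1 was 211 CPM in Klf4-floxed Marfan, 159.7 CPM in Marfan and 211 CPM in control, with Marfan lowest, and Igfbp7 was 1392 CPM in Klf4-floxed Marfan, 1524 CPM in Marfan and 2130.3 CPM in control, with control highest.

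Contractile genes need more care. Acta2 was 80.9 CPM in Klf4-floxed Marfan, 1078 CPM in Marfan and 292 CPM in control and Tagln 91 CPM in Klf4-floxed Marfan, 864 CPM in Marfan and 0 CPM in control in the luminal-like subcluster, but 3 Marfan barcodes supplied 84.2% of the Marfan Acta2 UMIs. The first of them had 317 Acta2 and 56 Myh11 UMIs and only 3 UMIs of Pecam1 and Cdh5, whereas the other two had no Myh11 UMI and 21 and 34 UMIs of Pecam1 and Cdh5. Without these 3 barcodes the log2 ratio of Acta2 went to -1.22 and that of Tagln to -0.78. The same omission left Thbs1 at -2.22, Ccn1 at -1.76, Ccn2 at -1.76, Edn1 at -1.49 and Igfbp7 at -1.03. Counting each cell alike gave -2.34 for Thbs1 and -1.3 for Edn1.

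**Figure D5:**
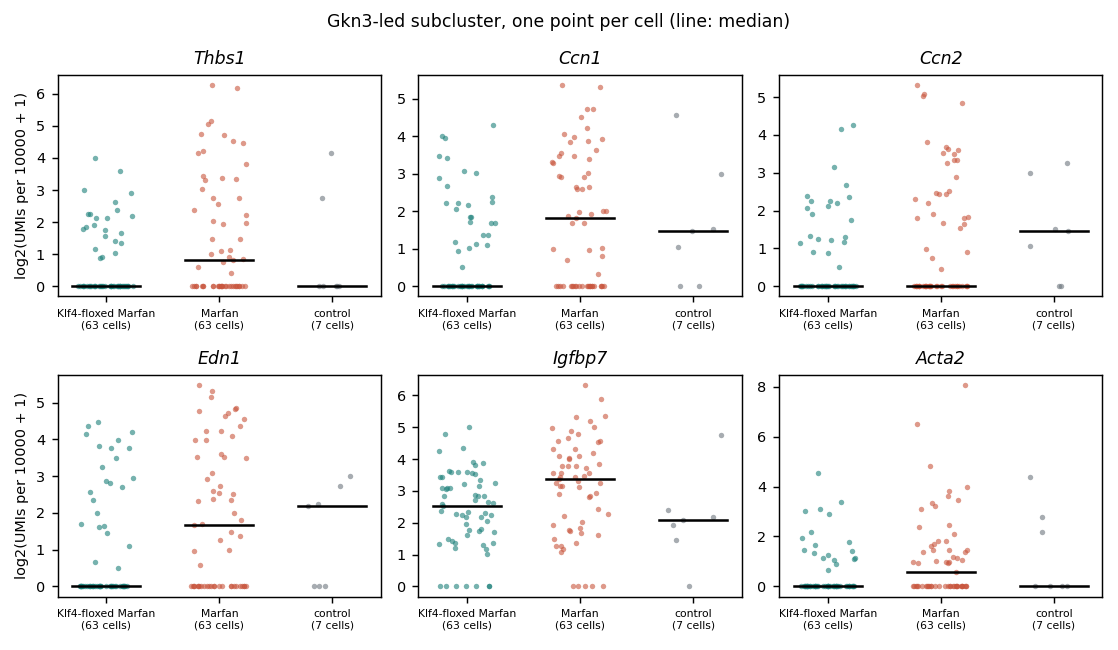
UMIs per 10000 in each cell of the luminal-like subcluster, as log2(value + 1) on the y axis, for 6 genes in the Klf4-floxed Marfan (63 cells), Marfan (63 cells) and control (7 cells) libraries, with the median as a line. A UMI was found in 35 Marfan cells for Thbs1, 40 for Ccn1 and 38 for Edn1. The 3 highest Marfan cells held 39.9% of the UMIs of Thbs1, 25.9% of Ccn1, 27.1% of Edn1 and 84.2% of Acta2.

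Higher in the Klf4-floxed Marfan cells of this subcluster were Gsta4 (log2 ratio 3.1, interval 2.37 to 3.9), the keratin Krt80 (log2 ratio 1.52, interval 0.92 to 2.15), the calcitonin-like receptor Calcrl (log2 ratio 1.41, interval 1.12 to 1.72) and the laminin chain Lamb2 (log2 ratio 1.29, interval 0.78 to 1.82). The angiopoietin receptor Tek was 463 CPM in Klf4-floxed Marfan, 248 CPM in Marfan and 455 CPM in control, and the anticoagulant receptor Thbd 437 CPM in Klf4-floxed Marfan, 234 CPM in Marfan and 422 CPM in control. Eln gave 0.82 (0.66 to 0.97) and Nos3 0.64 (0.27 to 1.02). In the larger part alone of the split described next, the ratios were 0.39 for Tek, 0.14 for Nos3 and 0.89 for Krt80, so Tek and Nos3 no longer differed by 1.5-fold. For Calcrl, Tek and Thbd the 7 control cells lay near the Klf4-floxed Marfan level.

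A finer clustering split this subcluster into a part with high and a part with low Thbs1. At a Leiden resolution of 1, 40 of its 133 barcodes formed a cluster of their own and 89 stayed in the larger part. The smaller part had Thbs1 at 1329.6 CPM, against 107 CPM in the larger part, Edn1 at 1367 against 160.0 CPM, and Ccn1 at 1009 against 168 CPM. Smooth muscle markers moved with the split, Tagln at 1109.8 against 29.9 CPM and Acta2 at 1044 against 36.4 CPM, and their part in it was not tested. Pecam1 was lower in the smaller part, at 1605 against 2976 CPM. Nrg1, a ligand of the ERBB receptors, was 222 CPM in the smaller part, with no UMI found in the larger part. The flow-induced genes stood the other way. Klf2 was 540.3 CPM in the smaller and 1841 CPM in the larger part, Klf4 148 and 484 CPM, and Nos3 106 and 272 CPM. Sfrp1 was nearly level, at 1491 and 1432 CPM. The smaller part held 10 of 63 luminal-like barcodes in Klf4-floxed Marfan, 28 of 63 in Marfan and 2 of 7 in control. Since these genes helped to form the clusters, the counts describe the split and are no separate finding. Within the larger part alone the log2 ratio of Klf4-floxed Marfan to Marfan was -0.84 for Thbs1, -0.36 for Ccn1, both nearer to 0 than over the whole subcluster. It was 0.013 for Ccn2 and 0.074 for Edn1, near 0 and of the opposite sign.

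Ccn1, Edn1 and Igfbp7 were among the genes lower in Klf4-floxed Marfan in this subcluster, and their promoter windows were searched. Only the windows with a TEAD match are printed. Any part of TEAD in the levels of these genes was not tested. The promoter set used held no entry for Thbs1 or Ccn2, so their windows were not searched. RefSeq windows of 300 bases (GRCm38.p6, 250 before to 50 after the start) were searched on both strands for the TEAD core GGAATG, shown in capitals. It was found in 4817 of all 32851 windows (14.7%). The Ccn1 window (chr3:145649936-145650235, minus strand) held 1 match, beginning 103 bases before the start, and the Edn1 window (chr13:42301226-42301525, plus strand) held 1, beginning 207 bases before it. The Igfbp7 window (chr5:77407996-77408295, minus strand) held 0. A CArG box, the motif of serum response factor, was in 535 windows (1.63%) and in none of these 3. A match of letters is a description of the window, not a bound site.
Ccn1: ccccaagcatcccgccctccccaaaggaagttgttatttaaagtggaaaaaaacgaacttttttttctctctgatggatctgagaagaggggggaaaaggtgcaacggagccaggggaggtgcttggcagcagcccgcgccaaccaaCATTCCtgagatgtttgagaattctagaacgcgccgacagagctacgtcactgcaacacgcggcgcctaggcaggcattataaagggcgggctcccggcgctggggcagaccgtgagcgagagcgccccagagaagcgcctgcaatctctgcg
Edn1: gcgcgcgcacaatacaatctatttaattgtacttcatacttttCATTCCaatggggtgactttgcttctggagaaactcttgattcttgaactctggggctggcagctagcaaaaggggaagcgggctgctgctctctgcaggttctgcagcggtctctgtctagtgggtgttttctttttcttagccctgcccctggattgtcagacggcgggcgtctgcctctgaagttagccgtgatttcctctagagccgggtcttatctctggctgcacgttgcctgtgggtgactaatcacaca

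Set beside the other endothelium of the same libraries, the endothelial-led members had the higher Vwf and an intermediate Klf2. Vwf was in the marker list that set the endothelial-led cells apart. The valve-type and lymphatic groups had no such split, so this Vwf difference is a description only. Over all members, without the split, Vwf was 219 CPM in Klf4-floxed Marfan, 246 CPM in Marfan and 77.1 CPM in control. Vwf in endothelial-led cells was 308 CPM in Klf4-floxed Marfan, 379 CPM in Marfan and 177 CPM in control, in valve-type endothelium 99.5 CPM in Klf4-floxed Marfan, 119 CPM in Marfan and 51.6 CPM in control and in lymphatic-gated cells 25.9 CPM in Klf4-floxed Marfan, 35.7 CPM in Marfan and 15.6 CPM in control. Klf2 was 1739.9 CPM in Klf4-floxed Marfan, 1728 CPM in Marfan and 2409 CPM in control in valve-type endothelium, above the endothelial-led level in each library, and 661 CPM in Klf4-floxed Marfan, 1104 CPM in Marfan and 954 CPM in control in lymphatic-gated cells, below it in each. Edn1 was 76.3 CPM in Klf4-floxed Marfan, 152 CPM in Marfan and 13.5 CPM in control in valve-type endothelium, again highest in Marfan, but 141 CPM in Klf4-floxed Marfan, 54.2 CPM in Marfan and 31.3 CPM in control in lymphatic-gated cells, highest in Klf4-floxed Marfan. Vcam1 was 603 CPM in Klf4-floxed Marfan, 105 CPM in Marfan and 31.3 CPM in control in lymphatic-gated cells. Valve-type cells numbered 54 in Klf4-floxed Marfan, 31 in Marfan and 45 in control, and lymphatic-gated cells 68 in Klf4-floxed Marfan, 93 in Marfan and 35 in control. None of these differences was tested.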

How the data were processed

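The deposited files held raw UMI counts per gene and barcode, made by the authors with Cell Ranger 6.1.2 per the file headers, on mm10 per the submitters' processing notes. Libraries were grouped by title, and the members and gene lists were chosen with earlier results of these data known. Counts of the members were summed per library and divided by their total to give CPM. Genes averaging at least 30 CPM over the 3 libraries with a UMI in at least 10% of members were compared, and a ratio of at least 1.5 was counted. Members were clustered alone with scanpy 1.11.5 and leidenalg 0.10.2 (1000 variable genes, 20 components, 15 neighbours, resolution 0.5, no integration). A subcluster took a cell type's name only where that type had more fixed markers among the 10 leading genes than any other type, at least 1, and at least 3 markers detected. A fibroblast to endothelial marker sum above 5 set a subcluster apart. Named genes were the 10 highest and 10 lowest ratios per comparison (without mitochondrial, ribosomal, haemoglobin, immunoglobulin, unnamed, rule and other-cell-type genes), members of the 28 lists and 10 genes named in the design. Further genes given by subcluster, and all genes of the luminal-like subcluster, were chosen after their values were seen. 1 gene that the rule names is not reported here. Doublets were kept. Scrublet marked 3 of 6263 barcodes in Klf4-floxed Marfan, 70 of 7105 in Marfan and 1 of 4510 in control, so in the alternative the highest-scoring 314 in Klf4-floxed Marfan and 163 in control were removed. Members held 2099526 UMIs in Klf4-floxed Marfan, 2773920 in Marfan and 1310153 in control. The ratio script was tested on simulated data. Sequences came from RefSeq.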

Additional observations from a re-analysis of the deposited data

Results flagged for a closer look

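The tdTomato-positive libraries, which no comparison above uses, also contained barcodes that met the same rule. There were 8 of 6349 filtered barcodes in Klf4-floxed Marfan (0.126%), 24 of 12100 in Marfan (0.198%) and 45 of 5432 in control (0.828%, interval 0.605 to 1.11%). They are listed because a signal was found in data outside the main measurement, above the 3 counts that a count of 0 allows. Their median sum of Pecam1 and Cdh5 was 4.5 UMIs in Klf4-floxed Marfan, 3.5 in Marfan and 4 in control. Acta2 in them was 15082 CPM in Klf4-floxed Marfan, 6360.3 CPM in Marfan and 14909 CPM in control, and Vwf 57.2 CPM in Klf4-floxed Marfan, 35 CPM in Marfan and 4.76 CPM in control. At least 1 tdTomato UMI was found in 5 of 8 in Klf4-floxed Marfan, 19 of 24 in Marfan and 43 of 45 in control. Of the endothelial-led barcodes in the lineage-negative libraries, 13 of 198 in Klf4-floxed Marfan, 13 of 213 in Marfan and 6 of 76 in control had one.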

How the results depend on the processing

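No paired analysis was possible because each genotype had 1 library per fraction and no result comes from a test. Depth limits the control most, with 7 luminal-like barcodes. The scalings by median ratios or without mitochondrial and ribosomal genes and the 2000 UMI minimum kept all 196 results near their values. The endothelial-led subclusters, with or without equal shares, and the parts of the luminal-like subcluster were chosen after seeing the data. The cause of the changes below was not tested.
Tent5a had no UMI in control once barcodes of over 1% fibroblast or smooth muscle UMIs were left out, and gives no ratio there. With at least 2 UMIs of Pecam1 and Cdh5, the share of members in the filtered barcodes was 4.89% in Klf4-floxed Marfan, 5.05% in Marfan and 4.59% in control, and with at least 5 it was 3.15% in Klf4-floxed Marfan, 3.15% in Marfan and 1.996% in control. Without barcodes of over 1% fibroblast or smooth muscle UMIs it was 2.89% in Klf4-floxed Marfan, 2.87% in Marfan and 1.57% in control, and in endothelial-led subclusters 3.16% in Klf4-floxed Marfan, 2.998% in Marfan and 1.69% in control. The luminal-like share in Marfan was 11.3% at resolution 1, and the endothelial-led share in Klf4-floxed Marfan 86.2% without Scrublet-marked barcodes.

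Genes higher in Klf4-floxed Marfan than in Marfan numbered 146 without Scrublet-marked barcodes, 176 without barcodes of over 1% fibroblast or smooth muscle UMIs, 289 at a mean of at least 10 CPM, 12 at 100 CPM, 2137 with no filter and 11 at a fold of 2. They were 188 in endothelial-led cells and 194 at equal shares there. Lower genes numbered 149 without Scrublet-marked barcodes, 219 at 10 CPM, 29 at 100 CPM, 2249 with no filter and 18 at a fold of 2. For Marfan against control, 369 were higher without barcodes of over 1% such UMIs, 481 at 10 CPM, 86 at 100 CPM, 2454 with no filter and 71 at a fold of 2. Lower genes numbered 652, 707, 84, 2938 and 89 under these 5 settings, 671 in endothelial-led cells and 767 at equal shares there.

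Some log2 ratios changed sign. Myl9 was -0.28 (Marfan to control) with at least 2 UMIs of Pecam1 and Cdh5, and with at least 5 Igfbp6 was -0.88 (Marfan to control) and 1.16 (Klf4-floxed Marfan to Marfan). Without barcodes of over 1% fibroblast or smooth muscle UMIs, Klf4-floxed Marfan to Marfan was 0.84 for Spp1, 0.068 for Mmp3 and 0.60 for Igfbp6, and Marfan to control 0.31 for Tnfrsf11b, 0.89 for Sost, 1.83 for Mt2 and -0.93 for Igfbp6. In endothelial-led cells Klf4-floxed Marfan to Marfan was 0.81 for Spp1 and 0.73 for Igfbp6, and Marfan to control 1.27 for Sost, 1.52 for Mt2 and -0.82 for Igfbp6. At equal shares there, Klf4-floxed Marfan to Marfan was 0.61 for Spp1, -0.10 for Id4, 0.47 for Igfbp6 and 0.18 for Cxcl1. Marfan to control was then -0.29 for Adh7, 0.10 for Tnfrsf11b, 0.24 for Inhba, 1.93 for Mt2, -1.4 for Igfbp6, -0.10 for Pecam1, -0.74 for Gja5, -0.20 for Bmx and -0.20 for the arterial list. With equal shares over all members it was -0.32 for Adh7, -0.080 for Pecam1, -0.74 for Gja5, -0.24 for Bmx and -0.082 for the arterial list. At resolution 1, in the larger part of the luminal-like subcluster, Klf4-floxed Marfan to Marfan was 0.013 for Ccn2, 0.074 for Edn1, 0.34 for Acta2 and 1.91 for Tagln.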

Other observations

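In Marfan endothelial-led cells 4 of 17 measured genes of the unfolded protein response were at least 1.5-fold higher than in control and 1 was lower, where 6.91% of all genes were higher and 13.1% lower, with a median log2 ratio of 0.34 and 0.43 at equal subcluster shares. Over all members this list had 1 of 17 higher and 1 lower, with a median of 0.18. The higher members were Calr, Sdf2l1, Manf and Ddit3, chaperones and a stress transcription factor. Oxidative phosphorylation had 0 of 16 genes past 1.5-fold (median 0.13), and glycolysis and hypoxia 0 of 14 (0.04). Mesenchymal transition genes were split, with 4 of 12 higher and 4 lower and a median of -0.13. Over all members mesenchymal transition genes had 2 of 13 higher and 5 lower, with a median of -0.0016. In Klf4-floxed Marfan against Marfan, 1 of the 12 measured in endothelial-led cells was higher and 1 lower. The summed proliferation markers in endothelial-led cells were 25.2 CPM in Klf4-floxed Marfan, 164 CPM in Marfan and 98.6 CPM in control. Pooled over libraries, this sum was 448 CPM in the endocardial-like subcluster, which held 26 Marfan barcodes. It was 6.84 to 20.7 CPM in the other endothelial-led subclusters, so it is not read as a trait of endothelial-led cells as a whole.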
